A study of Mus musculus with 2 samples.

Results

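The broad peaks described here are 814 regions outside gene promoters at which the uH2A library of wild-type mouse embryonic fibroblasts (MEFs) held at least 5 times the tags of the library from Bmi1 null MEFs after scaling. They were chosen by their width and tag positions from the 16406 listed peaks of wild-type over null enrichment, of which 16205 lie on autosomes and 15540 of these outside promoters. A member had to lie on an autosome, to be absent from the study's list of promoter peaks, to span 2000 bp or more from start to end, and to hold wild-type tags at 9 or more distinct combinations of position and strand. Each tag was placed by moving its 5′ end along its strand by a fixed shift, from the tag's start to the middle of a fragment of the length the peak caller used, and all peak coordinates are in mm8. The 814 members are 5.24% of the listed autosomal peaks outside promoters and cover 14.5% of their base pairs.

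The study compared chromatin carrying ubiquitinated histone H2A (uH2A) between C57BL/6 MEFs that are Bmi1 WT and MEFs that are Bmi1 KO, called Bmi1 null here. Littermate embryos gave the cells of both genotypes, and TBX2 was used to immortalize them, which limits them as a model of primary fibroblasts, and both immunoprecipitations used the E6C5 antibody. There is 1 library per genotype, from 1 line each, so no difference described below has a replicate check. No test between the genotypes was made, and genotype cannot be told apart from any other difference between the 2 immunoprecipitations. The intervals given cover counting error only and treat tags, or peaks where a share of peaks is given, as independent. Repeated tags and neighbouring peaks are not independent, so the intervals may be too narrow. The wild-type library holds 6114925 tags and the null library 8020248. Wild-type counts were multiplied by 1.31, the ratio of these totals, wherever a ratio or a scaled density is given, unless another scaling is named. Where each position and strand counted once, the factor was 1.28, from 4096561 distinct positions and strands in wild type and 5253063 in null.

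Bmi1 is a subunit of Polycomb repressive complex PRC1, in which the Ring1b protein attaches a single ubiquitin to histone H2A and Bmi1 stimulates that activity. PRC1 acts together with PRC2, the complex that methylates histone H3 to give H3K27me3, and both are known for holding genes of development silent in cells that do not use them. H3K4me3, in contrast, marks promoters that are active or poised for activity.

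A promoter here is the stretch of 1 kb to either side of a transcription start site (TSS) in mm8, and the supplied promoters are 2583 in number. Of these, 1999 are in the held portion of the study's gene table and 584 more come from the list of promoter peaks. The table is held only in part, so every distance to a promoter below is an upper limit on the distance to the nearest gene start. No sequence of the peaks was read. The promoter sequences of 4 genes beside broad peaks are printed as examples. They are Evl, whose supplied TSS is the nearest of all to a broad peak, and the nearest genes with a sequence among the homeobox genes (Pax7), the secreted signals (Wnt3) and the channels (Cacna1i). The sequences are RefSeq entries for GRCm38.p6, matched by gene symbol, and run 5′ to 3′ on the strand of the gene from 250 bases before its start to 50 after it. Capitals mark each CG, the site of CpG methylation and the feature that defines a CpG-rich promoter.

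Evl: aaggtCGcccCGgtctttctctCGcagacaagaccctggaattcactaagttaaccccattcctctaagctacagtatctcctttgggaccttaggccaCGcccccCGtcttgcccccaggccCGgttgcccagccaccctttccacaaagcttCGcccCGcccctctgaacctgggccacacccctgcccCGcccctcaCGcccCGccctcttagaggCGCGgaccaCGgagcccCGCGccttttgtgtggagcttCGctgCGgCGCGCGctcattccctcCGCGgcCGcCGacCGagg

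Pax7: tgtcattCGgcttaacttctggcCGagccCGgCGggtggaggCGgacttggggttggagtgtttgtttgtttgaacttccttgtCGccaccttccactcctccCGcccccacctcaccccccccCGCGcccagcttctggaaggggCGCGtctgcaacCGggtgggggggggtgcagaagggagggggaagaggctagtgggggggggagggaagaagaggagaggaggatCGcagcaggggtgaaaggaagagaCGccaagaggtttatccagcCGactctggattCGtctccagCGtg

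Wnt3: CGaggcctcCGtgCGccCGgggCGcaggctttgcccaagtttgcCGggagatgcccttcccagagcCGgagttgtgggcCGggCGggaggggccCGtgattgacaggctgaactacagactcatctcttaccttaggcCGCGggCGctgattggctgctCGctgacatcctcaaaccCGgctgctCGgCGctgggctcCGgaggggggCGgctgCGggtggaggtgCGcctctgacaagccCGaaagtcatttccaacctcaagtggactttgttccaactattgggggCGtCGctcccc

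Cacna1i: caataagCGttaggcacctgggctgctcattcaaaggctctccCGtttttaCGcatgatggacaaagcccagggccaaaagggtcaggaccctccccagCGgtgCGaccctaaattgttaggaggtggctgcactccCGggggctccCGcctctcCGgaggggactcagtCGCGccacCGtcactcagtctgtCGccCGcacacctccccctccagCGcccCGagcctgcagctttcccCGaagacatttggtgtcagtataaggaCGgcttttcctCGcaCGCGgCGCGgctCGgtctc

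In GRCm38.p6 these windows are chr12:108554470-108554769 on the plus strand for Evl, chr4:139832919-139833218 on the minus strand for Pax7, chr11:103773925-103774224 on the plus strand for Wnt3 and chr15:80286988-80287287 on the plus strand for Cacna1i. The letters CG occur 26 times in the Evl window, 17 times at Pax7, 24 times at Wnt3 and 23 times at Cacna1i. Among the 32851 RefSeq promoter windows of the same length the median is 7, and 16.9%, 31.4%, 19.98% and 21.5% of them hold as many as these windows in that order. CG reads the same on both strands, so the count covers both. The window of Arhgap27, the third nearest gene, holds 8, as many as 48.65% of the windows do. For that gene 2 starts are listed, as they are for Evl, and either window may not be the one at the supplied TSS. The counts of Arhgap27 and Evl are therefore not compared with those of the other genes. Of the 164 different genes nearest to a broad peak within 50 kb, 117 have a RefSeq window.

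At these 4 genes, the libraries differed less over the 2 kb promoter than in the broad peak beside it. The promoter of Evl, an actin regulator of the Ena/VASP family, held 21 tags of wild type and 12 of null, which gives 2.30 after scaling (95% interval 1.08 to 5.12), while the broad peak 1.21 kb from its TSS held 27 and 6. At Wnt3, which encodes a secreted ligand of early patterning, the promoter held 19 and 17 tags, and the peak 2.21 kb away held 39 and 7. The promoter of Pax7, a transcription factor of muscle progenitors, held 10 and 9 tags against 27 and 4 in the peak 4.61 kb away. At Cacna1i, which encodes a calcium channel of neurons, the promoter held 15 and 15 tags, a ratio of 1.31 (0.597 to 2.88), and the peak 2.54 kb away held 34 and 8. Because this ratio selected the peaks and not the promoters, both kinds of count stand side by side only as a description.

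The width of the members ran from 2000 to 5289 bp with a median of 2329.5 bp, and 533 of the 814 were narrower than 2500 bp while 13 reached 4000 bp. Medians per member were 27 wild-type tags (quartiles 23 and 32) on 16 distinct positions and strands (14 and 19), and 5 null tags (4 and 7) on 4. These are the values that chose the members, together with the 5-fold threshold of the peak list, and they are given as a description. In wild-type tags per kb, broad peaks had a median of 10.99 and the 4079 narrower peaks outside promoters with 9 or more positions had 14.8. Why the broad peaks were less dense was not tested.

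The width threshold decided membership alone, because each of the 814 autosomal peaks outside promoters that span 2000 bp already held 9 or more positions. The fewest were 9, in 11 members. Just inside the width threshold lay peaks of exactly 2000 bp at chr9:43692256-43694256, with 35 wild-type tags at 21 positions and 7 null tags, and at chr1:153479163-153481163, with 20 tags at 14 positions and 3 null tags. Just outside it, with 1999 bp each, lay peaks at chr1:190611132-190613131, with 27 tags at 16 positions and 6 null tags, and at chr17:75327080-75329079, with 24 at 16 and 3. The members with exactly 9 positions included a peak at chr4:55355111-55357327, with 39 tags and 9 null tags, and another at chr1:73416900-73419317, with 23 and 4. Nothing in these counts sets the peaks on the 2 sides of the width threshold apart.

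The member with the most distinct positions lay at chr8:125149389-125153872, a span of 4483 bp, with 66 wild-type tags at 43 positions and 15 null tags at 14. The scaled ratio there was 5.77 (95% interval 3.26 to 10.9). Its nearest supplied TSS, 14.4 kb away, is that of Zfpm1, which encodes a cofactor of GATA transcription factors in blood development. The peak at chr7:44914763-44918736 held 65 tags at 42 positions and 17 null tags, the highest null count of any member, and lay 72.4 kb from Snord35b, a small nucleolar RNA gene. On chromosome 17, from 31222499 to 31225734, 57 tags at 36 positions stood against 7 null tags, a ratio of 10.7 (4.86 to 27.8), 23.1 kb from Ndufv3, a gene for a subunit of the mitochondrial NADH dehydrogenase. The members named here for their many positions were not the ones closest to a supplied promoter.

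The widest member, of 5289 bp, lay at chr5:120411550-120416839 and held 62 wild-type tags at 38 positions and 13 null tags at 10. Its nearest supplied TSS was that of Lhx5, a LIM homeobox gene of forebrain development, at a distance of 275.7 kb. A peak of 5130 bp at chr7:29045598-29050728 held 62 tags at 39 positions and 16 null tags, 163.5 kb from Sipa1l3. The next widest were 5006 bp at chr11:5893694-5898700, with 44 and 8 tags and 67.1 kb from Camk2b, a subunit of a calcium-dependent kinase of neurons, and 4674 bp at chr6:127628420-127633094, with 47 and 12 tags and 101.3 kb from Prmt8, an arginine methyltransferase gene. A peak of 4633 bp at chr16:94958015-94962648 held 43 and 8 tags and lay 143.8 kb from Kcnj6, an inwardly rectifying potassium channel gene.

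**Figure D1:**
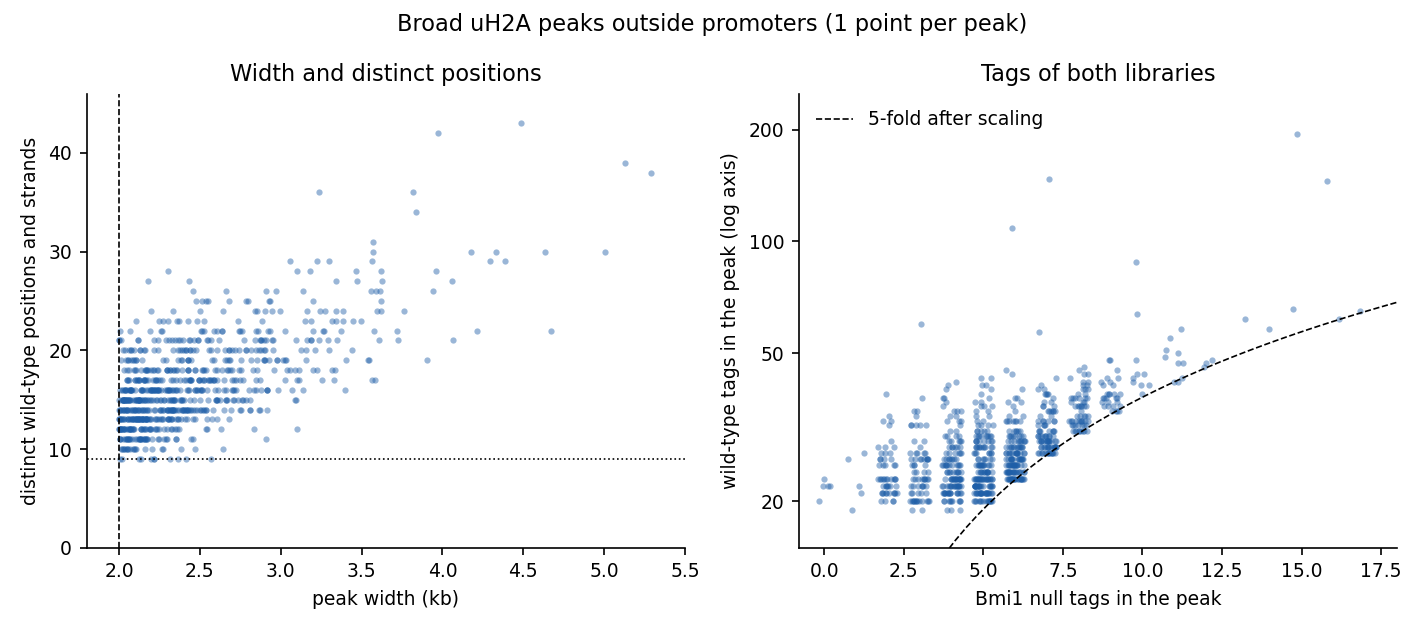
Each point is 1 of the 814 broad peaks: left, width in kb against distinct wild-type positions and strands, with the thresholds as lines; right, null tags (spread sideways a little) against wild-type tags on a log axis, with the line at 5-fold after scaling. The points crowd at the width threshold and along the 5-fold line, and 5 peaks hold 80 wild-type tags or more.

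Within the broad peaks the summed wild-type tags were spread over the whole width. When each peak was cut into 10 equal parts, the parts held between 9.07% and 10.8% of the 23703 wild-type tags, and between 9.05% and 10.6% of the 4442 null tags. In the plot of both libraries around the peak centre, the scaled wild-type density of broad peaks stayed between 14.9 and 16.3 tags per kb over the innermost 2 kb. A level top over this span follows from the width rule, since each member spans 2000 bp or more. The fullest 250 bp of a broad peak held a median of 26.7% of its wild-type tags (quartiles 22.2% and 32.4%), and the widest space between neighbouring tags had a median of 411 bp. The flat profile describes the sum of the peaks, since single peaks hold too few tags for a shape of their own.

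A few members departed from this. The 5 broad peaks with 80 or more wild-type tags, singled out after their values were seen, held 684 tags at 83 positions and strands. The highest, at chr15:58937459-58940394, held 195 tags at 25 positions, with 85.1% of them in its fullest 250 bp, and 15 null tags at 10 positions. Its ratio was 17.1 with all tags and 3.21 with 1 tag per position and strand. The other members of this kind lay at chr2:93726771-93728809 with 147 tags at 16 positions, at chr5:23009227-23011378 with 145 at 11, at chr9:42612590-42614926 with 109 at 14, and at chr2:179551871-179554364 with 88 at 17. In these peaks most wild-type tags repeat a position and strand.

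Repeated wild-type tags were also more frequent in the broad peaks as a whole than in the library. Of the wild-type tags inside them 42.1% (95% interval 41.5% to 42.8%) repeated a position and strand, against 33.0% of the whole wild-type library. Of the null tags inside them 17.96% (16.8% to 19.1%) did, against 34.5% of the null library. The peaks were called on all tags, repeats included, and part of this contrast is set by that choice. Other listed peaks held repeats too. Against medians of 27 wild-type tags on 16 positions in broad peaks, narrower peaks with 9 or more positions had 19 on 11. Those with fewer positions had 12 on 5, and all listed autosomal peaks 14 on 7. More repeats than in the library are thus not particular to broad peaks. Strand was even, with 50.05% of the wild-type tags inside on the plus strand, and tags without a mismatch made up 47.2% of them against 42.8% of the library.

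Over their 2019714 bp, all members combined took up 23703 tags or 0.388% of the wild-type sequencing, and 4442 or 0.0554% of the null. The scaled ratio was 7.00 (95% interval 6.78 to 7.23). All 814 reached 5-fold when both libraries were counted again, as did 100% of the 16205 listed autosomal peaks, since the list was made with that threshold. When each position and strand counted once, 382 of the 814 (46.9%) reached 5-fold, beside 57.9% of all listed autosomal peaks and 64.0% of the narrower peaks with 9 or more positions. With 1 tag per position and strand the ratio inside the broad peaks was 4.83. These ratios come from the contrast that the peak list was built on, and nothing is read from them.

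The null library was also lower inside the broad peaks than around them. Null density was 2.20 tags per kb inside and 4.31 in the flanks, which are the bases from 1 kb to 25 kb beyond each edge, a ratio of 0.510 (0.495 to 0.526). The same ratio was 0.541 (0.483 to 0.604) in the 62 promoter peaks that are as broad, and 0.581 (0.571 to 0.591) in the narrower peaks with 9 or more positions. A 5-fold threshold admits stretches where the null library happens to be low, so the dip is part of what was selected. Scaled wild-type density was 15.4 tags per kb inside and 5.71 in the flanks.

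**Figure D2:**
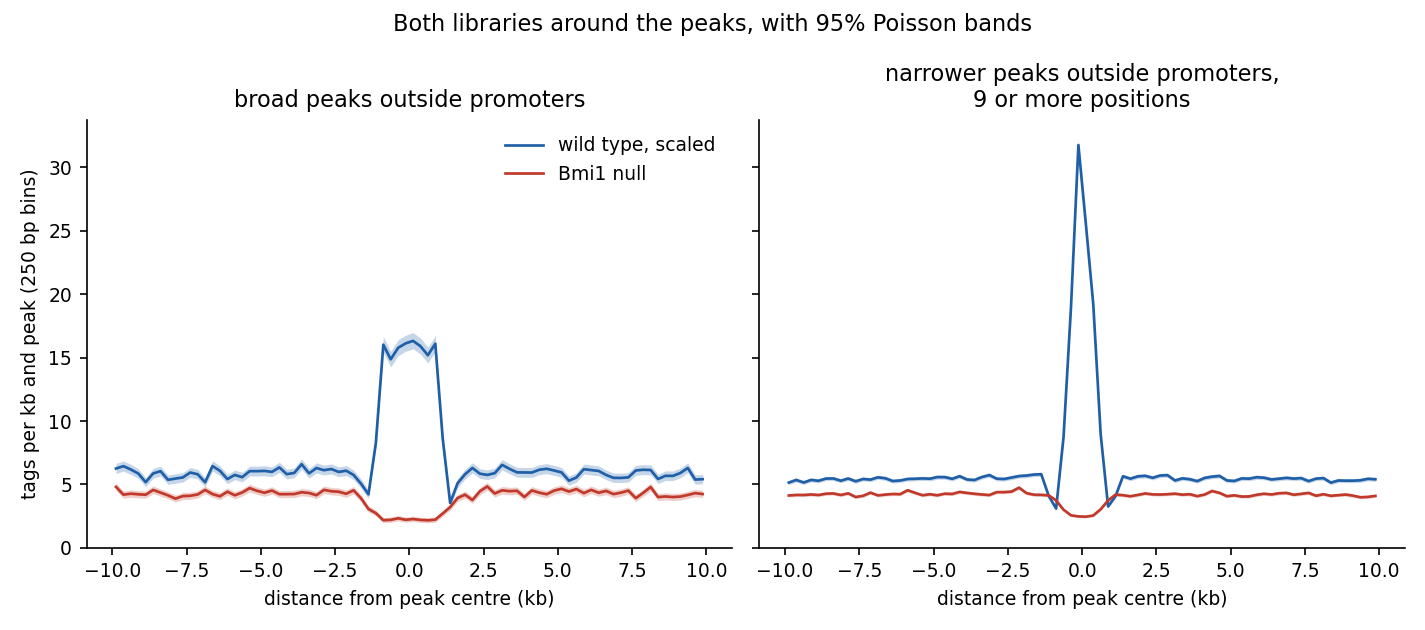
Scaled wild-type tags (blue) and Bmi1 null tags (red) per kb and peak in 250 bp bins, within 10 kb of the peak centre, for the 814 broad peaks (left) and the 4079 narrower peaks outside promoters with 9 or more positions (right), with 95% Poisson bands. The different shapes of the tops follow from the widths by which the sets were chosen, and away from the edges wild-type density lies above null density in both.

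Summed over their flanks, the broad peaks had more scaled wild-type than null tags. In the flanks there were 162471 wild-type tags and 161039 null ones, giving 1.32 after scaling (95% interval 1.31 to 1.33), against 1.002 over whole autosomes. With the bases of every listed peak left out, the flank ratio was 1.24 (1.23 to 1.25), and that of the autosomes was 0.962 (0.961 to 0.963). Flanks of the broad peaks at promoters gave 1.303 (1.27 to 1.34), an interval that overlaps that of the broad peaks elsewhere. Flanks of the narrower peaks with 9 or more positions gave 1.26, and those of the 10647 narrower peaks with fewer positions 1.11 (1.10 to 1.11). With listed peaks left out, the flank bases lie in no peak that the list reports, though they come from the same 2 libraries and peaks close together share some of them. All sets were also selected for wild-type excess in these libraries, and the broad peaks for long runs of wild-type tags. The flank ratios are therefore a description, and the part of this selection in them was not tested.

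Counted peak by peak, 240 of the 814 broad peaks (29.5%, interval 26.4% to 32.7%) had flanks at 1.5-fold or more, beside 14.6% of all listed autosomal peaks. Outside listed peaks the count was 153 (18.8%, 16.2% to 21.7%), beside 8.50% of all. Among the narrower peaks with 9 or more positions the shares were 21.9% and 12.9%. The flanks of 698 broad peaks (85.7%) had a ratio above 1, beside 66.0% of all listed autosomal peaks, 79.9% of the narrower peaks with 9 or more positions and 83.9% of the broad promoter peaks. A median flank held 201 null tags, so single flanks are measured with a precision that single peaks lack.

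Taken by distance from the edge of a broad peak, the excess of wild-type tags fell off slowly. Bases at the larger distances were not cleared of those closer to another broad peak, so a base could count at several distances. Another broad peak lay within 100 kb of 25.1% of the members. The far values are thus not ratios at that distance from the nearest broad peak. Outside listed peaks, the scaled ratio was 1.28 (1.24 to 1.32) from 1 to 2 kb beyond the edge, 1.27 (1.26 to 1.29) from 5 to 10 kb, 1.21 (1.20 to 1.22) from 25 to 50 kb and 1.13 (1.13 to 1.14) from 250 to 500 kb. Null density fell over the same distances as well, from 4.50 to 3.90 tags per kb, taken over all bases at each distance. On the autosomes outside listed peaks it was 3.61, taken only over 1 kb windows that held a tag. Leaving out windows without tags can only raise that value. In the first kb the ratio was 0.897 (0.863 to 0.931), because a listed peak ends where wild-type tags are missing. Both libraries were thus denser around broad peaks than on the autosomes at large, the wild-type library more so.

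**Figure D3:**
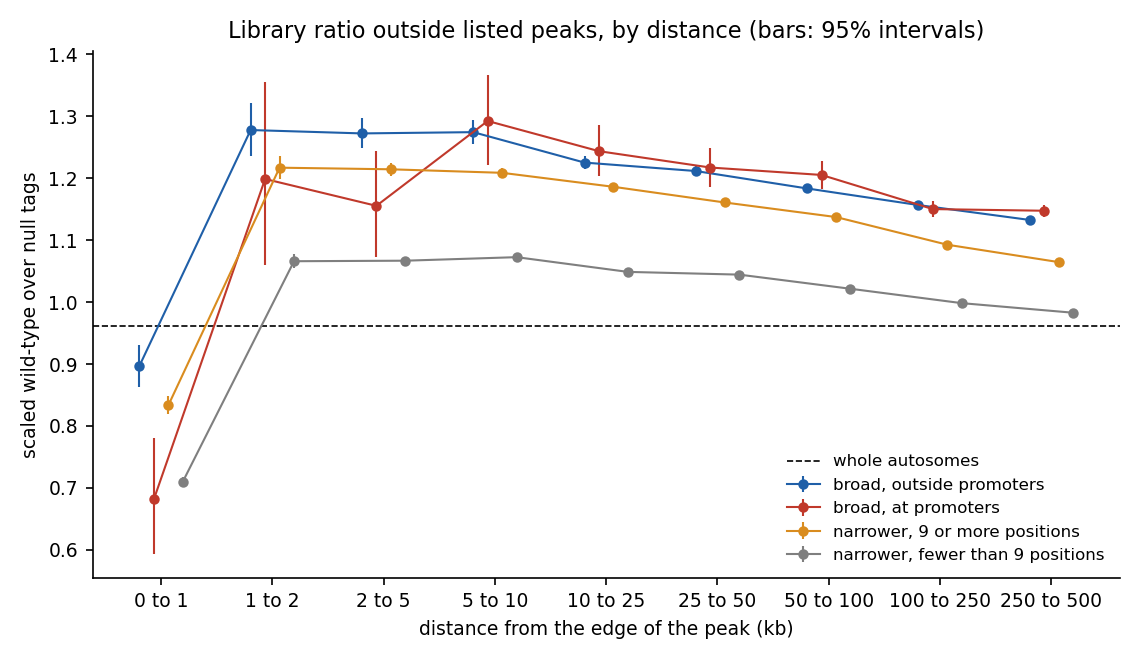
Scaled ratio of wild-type to null tags outside listed peaks by distance from the peak edge in kb, for broad peaks outside promoters, broad promoter peaks and narrower peaks outside promoters, with 95% intervals and the ratio of the whole autosomes, 0.962, as a dashed line. From 1 kb outward the broad peaks outside promoters decline from 1.28 to 1.13. Bases closer to another peak of the same set were not left out at the larger distances.

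Single flanks, listed peaks included, differed widely. The highest flank ratio was 2.44 (2.003 to 2.99), with counts of 287 for wild type and 154 for null, around a peak at chr4:125047374-125049538 that itself held 32 and 8 tags. It lay 54.2 kb from Grik3, a glutamate receptor gene listed with H3K27me3 only. The next highest, 2.29 (1.87 to 2.81), surrounded a peak at chr4:41803900-41806155, 45.4 kb from Dnaic1, which encodes a dynein chain of motile cilia. With listed peaks left out, the highest flank ratio of any member was 2.12. The lowest was 0.595 (0.470 to 0.750), from 108 and 238 tags, around a peak at chr15:51222859-51225995 that held 27 and 7 tags and lay 644.2 kb from Aard. Around a peak at chr3:144485636-144487747, 1783 kb from Gtf2b, a general transcription factor gene, it was 0.652 (0.497 to 0.849). A broad peak could thus lie in a stretch with fewer wild-type than null tags.

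Across the 814 peaks the flank ratio had a Spearman correlation of -0.11 with the ratio inside, 0.11 with wild-type tags per kb and 0.079 with width, and -0.25 with distance to the nearest supplied TSS. All of these are across peaks of the same 2 libraries, which are not independent of one another, and the rule cuts off the range of width and inside ratio. Between sets of different width the pooled flank ratio did differ, at 1.29 for peaks of 1500 bp or more and 1.37 for those of 2500 bp or more. Peaks within 10 kb of a supplied TSS had pooled flanks at 1.43 (1.38 to 1.47, n = 41), those from 10 to 50 kb at 1.39 (n = 136), those from 50 to 200 kb at 1.38 (n = 282) and those beyond 200 kb at 1.24 (1.23 to 1.25, n = 355). Inside the peaks the ratios of these classes ran from 6.69 to 7.18, with overlapping intervals. With listed peaks left out, the flanks of the same classes stood at 1.29 (1.25 to 1.33), 1.31 (1.29 to 1.33), 1.29 (1.28 to 1.31) and 1.17 (1.16 to 1.18), so that only the class beyond 200 kb was lower.

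Broad peaks were unevenly spread over the chromosomes. Chromosome 15 had the most per covered Mb, 64 peaks or 0.634 per Mb (95% Poisson interval 0.488 to 0.809), followed by chromosome 11 with 69 or 0.580 (0.451 to 0.734) and chromosome 4 with 81 or 0.529 (0.420 to 0.658). Chromosome 3 had the fewest, 24 or 0.152 per Mb (0.0973 to 0.226), next to chromosome 16 with 15 or 0.156 (0.0875 to 0.258). Over all 19 autosomes the mean was 0.337. Listed peaks of any kind numbered 10.1 per Mb on chromosome 15, 9.18 on chromosome 11, 7.69 on chromosome 4 and 5.27 on chromosome 3. The intervals of chromosomes 15 and 11 overlap, and with a p-value of 1e-07 or less chromosome 11 came first, with 54 peaks or 0.454 per Mb, before chromosome 15 with 45 or 0.446. Across the 19 autosomes the broad peaks per Mb had a Pearson correlation of 0.94 with listed peaks per Mb (Spearman 0.87), 0.73 with the scaled ratio of the whole chromosome (0.65) and 0.66 with supplied promoters per Mb (0.67). These describe 19 points that share both libraries.

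The share of broad peaks among the listed peaks outside promoters was highest on chromosome 4, at 7.15%, followed by 6.63% on chromosome 11, 6.52% on chromosome 7, 6.51% on chromosome 8 and 6.45% on chromosome 15. It was lowest on chromosomes 3, 18 and 10, at 3.02%, 3.29% and 3.34%. On each of the 19 chromosomes the pooled flank ratio was above that of the whole chromosome. It was 1.60 (1.56 to 1.63) on chromosome 4 against 1.14, and 1.08 (1.04 to 1.13) on chromosome 14, the lowest, against 0.900. Divided by the ratio of its own chromosome, the flank ratio was lowest on chromosome 9, at 1.14, and highest on chromosome 10, at 1.43. Inside the peaks, where each member had passed the same 5-fold threshold, the pooled ratio ran from 6.54 for chromosome 12 to 7.65 for chromosome 3.

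**Figure D4:**
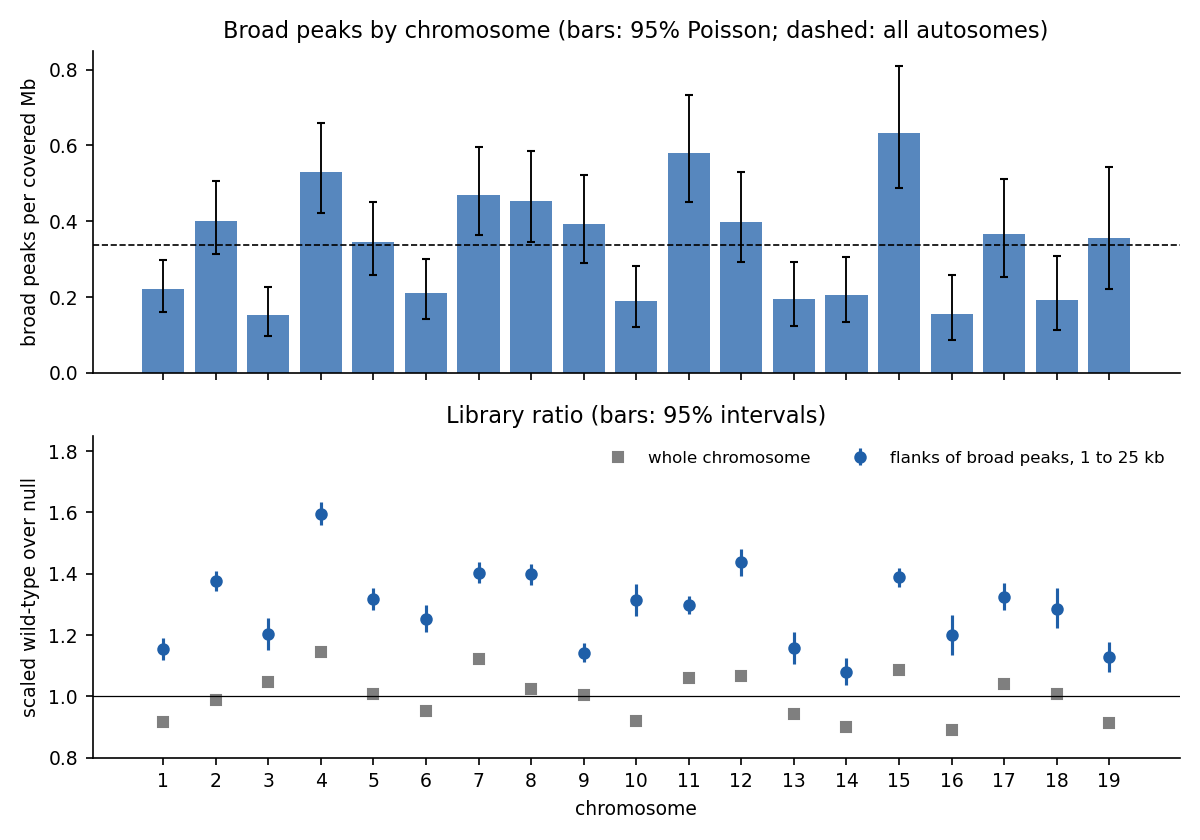
Broad peaks per covered Mb of each autosome with 95% Poisson intervals and the mean of all autosomes, 0.337, and the scaled wild-type over null ratio in the pooled flanks of the broad peaks and over the whole chromosome. Chromosomes 4, 11 and 15 hold the most per Mb, and on each chromosome the flank ratio lies above that of the whole chromosome.

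At a finer scale, 1893 of the 2413 covered 1 Mb bins held no centre of a broad peak, 338 held 1 and 121 held 2. The fullest, with 8 each, were the bins from 151000001 to 152000000 on chromosome 4 and from 112000001 to 113000000 on chromosome 12, and 2 bins of chromosome 8, which start at 123000001 and 125000001, held 7 each. The chromosome 4 bin contains the supplied TSS of Hes3, a bHLH repressor gene of neural progenitors, and the second of these chromosome 8 bins holds the member with the most positions, near Zfpm1. These bins were singled out after their counts were seen.

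Broad peaks also had listed peaks close by more often than other peaks did. Another listed peak lay within 10 kb of 288 of them (35.4%, 32.1% to 38.8%), against 21.7% (21.1% to 22.4%) of the 14726 other listed autosomal peaks outside promoters and 28.4% (27.1% to 29.9%) of the narrower ones with 9 or more positions. When only neighbours with 9 or more positions counted, these shares were 17.2% (14.7% to 19.97%), 10.1% and 13.9% (12.9% to 15.1%). In that count the intervals of the broad peaks and of the narrower ones with 9 or more positions overlap. The median gap to the next listed peak was 18.2 kb for broad peaks, 22.0 kb for the narrower peaks with 9 or more positions and 33.5 kb for all the other peaks outside promoters. Another broad peak lay within 50 kb of 133 of the 814 (16.3%, 13.9% to 19.1%). Since broad peaks lie on chromosomes with many listed peaks, the part of that density in these shares was not tested.

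When broad peaks were joined over gaps of up to 50 kb, 681 stood alone, 51 chains held 2, 5 chains held 3 and 4 chains held 4. The chains of 4 were singled out after their counts were seen. On chromosome 11 from 67988245 to 68029971 such a chain held 144 wild-type and 25 null tags within 41.7 kb, nearest to Wdr16. On chromosome 12 from 85674232 to 85696760 the peaks held 95 and 19 tags within 22.5 kb, nearest to Tmem90a. The others lay at chr4:130100247-130234041, with 125 and 24 tags, nearest to Khdrbs1, which encodes an RNA-binding protein, and at chr15:77832303-77902626, with 104 and 24 tags, nearest to Rabl4. In each of these chains the several broad peaks shared 1 nearest supplied promoter.

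Most broad peaks lay far from a supplied promoter. The median distance from the nearer edge of a peak to the nearest supplied TSS was 157.4 kb (interquartile range 59.6 to 405.9 kb), and 177 of the 814 (21.7%, 18.96% to 24.7%) lay within 50 kb. For the other listed peaks outside promoters the median was 275.5 kb and 14.97% (14.4% to 15.6%) lay within 50 kb. For the narrower peaks with 9 or more positions these were 195.2 kb and 19.1% (17.9% to 20.3%), an interval that overlaps that of the broad peaks. Stretches of median broad width placed in each of the 236950 covered windows of 10 kb had a median of 508.3 kb, with 9.52% within 50 kb. Some supplied promoters are known here only because they carry a listed peak. With the promoters of the gene table alone, 15.97% of the broad peaks (13.5% to 18.7%) and 7.56% of the windows lay within 50 kb. No member lay within 1 kb of a supplied TSS, as the rule leaves out promoter peaks.

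The same distances were taken to promoters with either mark, and a difference between the marks was not tested. Within 50 kb of a promoter listed with H3K27me3 only lay 66 broad peaks (8.11%, 6.33% to 10.2%), against 4.73% (4.396% to 5.09%) of the other listed peaks outside promoters and 2.57% of the windows. Within 50 kb of a promoter listed with H3K4me3 only lay 74 (9.09%, 7.21% to 11.3%), against 7.69% (7.26% to 8.13%) and 5.21%. The narrower peaks with 9 or more positions gave 6.37% (5.64% to 7.17%) and 9.02% (8.16% to 9.94%), and both intervals overlap those of the broad peaks. Within 10 kb lay 1.23% (0.591% to 2.25%) of the broad peaks for H3K27me3 only, against 0.856% of the other peaks, and 2.21% (1.32% to 3.47%) for H3K4me3 only, against 1.28%. The H3K27me3-only promoters supplied are 636 and the H3K4me3-only promoters 1363. Of the 177 broad peaks within 50 kb, the nearest promoter was listed with H3K27me3 only for 53, with H3K4me3 only for 68 and only among promoter peaks for 56. This split depends on which promoters were supplied, as the held portion of the gene table has genes with either mark alone and none with both or neither. Of the 121 with a known direction, 65 lay downstream of the TSS and 56 upstream.

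**Figure D5:**
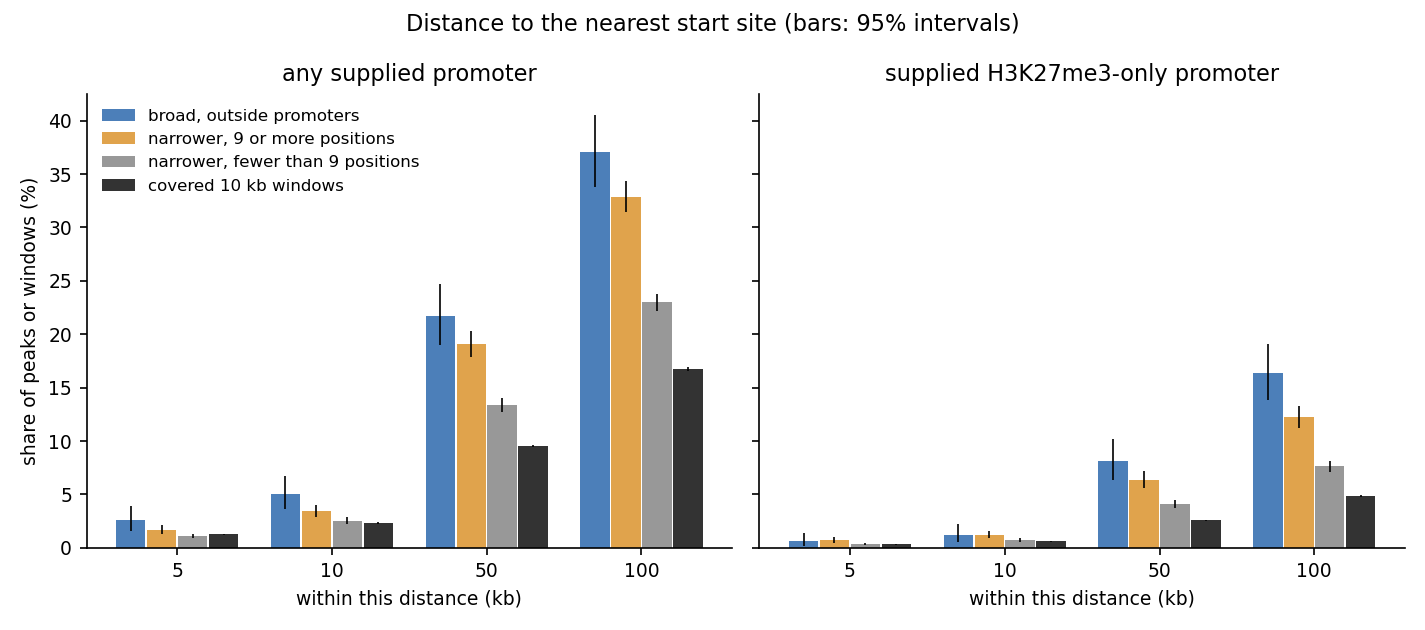
Share of peaks, in percent, whose nearest supplied TSS lies within 5, 10, 50 or 100 kb, for broad and narrower peaks outside promoters and for windows of the covered autosomes, with any supplied promoter on the left and those listed with H3K27me3 only on the right. At 50 kb the broad peaks stand at 21.7% and 8.11%, and the windows at 9.52% and 2.57%.

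The members closest to a supplied TSS began just beyond the promoter. After the peak beside Evl, at chr12:108998961-109001312 and 1.21 kb upstream, came a peak at chr7:24588553-24591895, 1.58 kb upstream of the ribosomal protein gene Rps19, with 36 wild-type and 8 null tags. A peak at chr11:103162380-103164753 lay 1.59 kb from Arhgap27, which encodes a GTPase-activating protein, and held 25 and 6 tags. Downstream of Il6ra, the gene of an interleukin receptor chain, a peak at chr3:89995272-89997292 lay 1.797 kb from the TSS with 19 and 1 tags, which leaves its ratio of 24.9 between 3.96 and 1035. Upstream of Atf4, a transcription factor gene of the stress response, a peak at chr15:80078226-80080375 lay 2.06 kb away with 20 and 4 tags. Of these genes, Evl, Rps19, Il6ra and Atf4 are listed with H3K4me3 only.

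Among gene families, 198 of the 2507 supplied promoters on autosomes (7.90%, 6.87% to 9.02%) had a broad peak within 50 kb. The families were taken by gene symbol, and with the gene table held in part their counts cover only some of the genes. Of 53 genes for secreted signals and their receptors, 8 did (15.1%, 6.75% to 27.6%), of 147 channel and transporter genes 14 (9.52%, 5.31% to 15.5%) and of 47 homeobox genes 4 (8.51%, 2.37% to 20.4%). Of 57 other developmental transcription factor genes 3 did (5.26%, 1.10% to 14.6%), and of 60 zinc finger genes 2 (3.33%, 0.406% to 11.5%). Each of these intervals includes the share of all supplied promoters, so no family stood apart at these numbers.

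The homeobox genes with a broad peak within 50 kb were Pax7, Lhx3, a gene of pituitary and motor neuron development, and the gut identity genes Cdx1 and Cdx2. At Pax7 the peak lay at chr4:139109652-139112086, at Lhx3 it lay 13.6 kb from the TSS with 23 wild-type and 6 null tags, and at Cdx2 33.2 kb from the TSS with 20 and 5. The peak 6.44 kb from the TSS of Cdx1 held 29 and 5 tags. The same peak lay 12.7 kb from Slc6a7, a proline transporter gene, and is counted once among the members. All 4 homeobox genes are listed with H3K27me3 only. Among the other developmental transcription factor genes, the retinal gene Foxn4 had a peak 12.9 kb away with 28 and 5 tags, Hes3 one at 20.9 kb with 44 and 10 tags at 28 wild-type positions, and Cebpa, a regulator of fat and myeloid cells, one at 31.3 kb with 23 and 6.

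Of the signals, Wnt3 had the nearest broad peak, at chr11:103592519-103595059, and Fgf8, a growth factor gene of limb and brain patterning, had one 6.29 kb away with 22 and 2 tags. Peaks lay 16.7 kb from Fgf22, with 22 and 5 tags, and 21.8 kb from the Notch ligand gene Jag2, with 27 and 7. Among the channels, Chrna4, a nicotinic acetylcholine receptor gene, had a peak 4.95 kb away with 28 and 6 tags, in addition to Cacna1i. The zinc finger genes were Zfp12, with a peak of 44 and 6 tags 8.29 kb away, and Zfp672, with one of 22 and 3 tags at 31.5 kb. Wnt3, Fgf8, Jag2, Cacna1i, Chrna4 and Foxn4 are listed with H3K27me3 only, whereas Fgf22, Cebpa and the zinc finger genes come from the list of promoter peaks.

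The 2 kb promoters of these genes gave mixed ratios. Fgf8 had 25 wild-type and 4 null tags (8.20, 2.83 to 32.4), Fgf22 had 11 and 2 (7.21, 1.57 to 67) and Chrna4 had 28 and 9 (4.08, 1.87 to 9.83). Foxn4 had 12 and 16 (0.984, 0.425 to 2.22), Jag2 had 13 and 19 (0.897, 0.407 to 1.92) and Hes3 had 8 and 10 (1.049, 0.360 to 2.95). Fgf22 is supplied only through the list of promoter peaks, so its promoter had been selected for an excess of wild-type tags.

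To measure the background of such regions in the same way, broad runs of tags were also sought with the libraries exchanged. Shifted tags were joined as in the peak list, across gaps no longer than 2 fragments, and runs of 2000 bp or more were kept where they had 9 or more positions, lay over 1 kb from a supplied TSS, exceeded the library's mean density with a Poisson p of 1e-05 or less, and held 5-fold or more over the other library. With the wild-type library as test there were 837 such runs among 8760 past the Poisson threshold (9.55%), and they included all 814 members. With the null library as test there were 440 among 5463 (8.05%). With null tags drawn down to the depth of the wild type, the counts were 1020 of 8760 (11.6%) and 261 of 2877 (9.07%), and the 1020 included 695 of the 814 members. With 1 tag per position and strand for the fold, 460 wild-type (5.25%) and 263 null runs (4.81%) reached 5-fold. Broad runs in excess of 5-fold were therefore found in both directions. The wild-type library gave more of them and also had more runs past the Poisson threshold, and the difference between the directions was not tested.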

How the data were processed

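The deposited tag files hold 25 bp alignments to mm8 with up to 2 mismatches. The authors' peak file gives, for each peak, the count of wild-type tags as deposited. Its fold was computed by the authors, each library's tags in the peak being divided by that library's total before the ratio was taken; counting again matched it when a null count of 0 was set to 1. The p-value was computed by the authors with a modified TIROE caller, which kept peaks with p at 1e-05 or less and fold at 5 or more. Counting the tags again gave the deposited count in all 16406 peaks, and the fold to within 0.1% of the deposited one.

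Members and lists were chosen with earlier results of these data known. Regions are named if they rank first by positions, width, promoter distance or flank ratio (with 20 or more null tags in the flanks), lie at a threshold, or are the nearest to a gene of a family; others are marked as singled out after their values were seen. Regions on chromosome 18 are counted but not named with coordinates. Ratios and shares carry Clopper-Pearson and densities Poisson intervals at 95%, which cover counting error only and treat tags or peaks as independent. With 1 library per genotype no test was made. Alternatives for the shift, repeated tags, scaling, flanks, width, positions, p-value, promoters and distances were tried. Runs were called in the same way with the libraries exchanged, and null tags were thinned with seed 7. Promoters of genes missing from the held part of the gene table could not be removed from these runs. RefSeq promoter windows of GRCm38.p6 were matched by symbol. No mm8 genome was at hand, so peak sequences were not read. The code was checked on simulated data. Software was Python 3.11.15, numpy 2.4.6, pandas 2.3.3, scipy 1.17.1 and matplotlib 3.10.9.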

Additional observations from a re-analysis of the deposited data

Results flagged for a closer look

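The Y chromosome, which the rule for members leaves out, carried signal. Its scaled wild-type over null ratio was 2.12 (95% interval 2.005 to 2.23), from 3483 wild-type and 2159 null tags, and 1.76 with 1 tag per position and strand. On the X chromosome, which the rule leaves out as well, the ratio was 0.912 (0.906 to 0.918). The X and Y chromosomes together held 9 listed peaks of 2000 bp or more. The Y ratio and this count stood out because they are data that the rule sets aside. They were not followed further, and the cause was not tested.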

How the results depend on the processing

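Of 66 alternatives to 11 results, 30 left the result the same, 36 moved it and 0 reversed it. A count was taken as the same within 1.5 times the main count, and any other value within the 95% interval of the main value, which is narrow for ratios. The members with flanks at 1.5-fold or more, 240 in the main count, thus numbered 161 with 1 tag per position and strand, 194 when scaled within each chromosome, 285 for flanks of 1 to 10 kb and 197 for 10 to 50 kb, and 746 reached 5-fold without the shift, all taken as the same. With tags at the lower end of the alignment, not shifted, the ratio inside was 6.76 and null density inside over flanks 0.528. With 1 tag per position and strand the ratio inside was 4.83, the flank ratio 1.28, null inside over flanks 0.628 and the count at 5-fold 382. The flank ratio was 1.29 when scaled within each chromosome, 1.36 for flanks of 1 to 10 kb, 1.29 for 10 to 50 kb, and 1.24 without listed peaks, where 153 members reached 1.5-fold. A width of 1500 bp or more gave 1954 peaks by construction, an inside ratio of 7.33, a flank ratio of 1.29, null inside over flanks of 0.527, a median distance of 177 kb, neighbours within 10 kb for 31.1%, and 1.59 peaks per Mb at most. A width of 2500 bp or more gave 281 peaks, ratios of 6.74 inside and 1.37 in flanks, 27.05% within 50 kb, a median of 130 kb and 0.307 per Mb at most. With 12 or more positions the flank ratio was 1.34. A p-value of 1e-07 or less gave 536 peaks, a flank ratio of 1.36, null inside over flanks of 0.553 and 0.454 per Mb at most, on chromosome 11 in place of chromosome 15. With promoters of the gene table only, 15.97% lay within 50 kb and the median was 221 kb. Wider distances raise shares by construction, to 37.1% within 100 kb of a promoter and 79.9% with a neighbour within 50 kb, and neighbours with 9 or more positions lower it to 17.2%. Exchanged runs numbered 261 with null thinned and 263 with 1 tag per position. Where a shift is not by construction, the cause was not tested. No paired analysis was possible because each genotype has 1 library.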
